A study of Mus musculus with 22 samples.

Results

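The genes described here are the 10 that carry a peptide from the proteasome to an MHC class I molecule on the cell surface: H2-K1 and H2-D1 (the class I heavy chains of this mouse strain), B2m, Tap1, Tap2, Tapbp, Psmb8, Psmb9, Psmb10 and Nlrc5. They were chosen by symbol as parts of one known pathway, and each symbol is listed once among the 52526 distinct symbols of the files. All 10 were above the floor of the files in enough mice to be tested, among 15138 tested genes. RNA was measured in the left number 4 mammary fat pad of 22 female C57BL/6J mice aged 7-8 weeks, taken 24 hours after engraftment of EO771 cells, a mammary cancer line of the same strain made to express firefly luciferase. Before this, cages held either a working wheel or only its hub (the sedentary controls) for 2 weeks, and the mice were injected intravenously with PBS liposomes or clodronate liposomes 24 hours before and again at engraftment. Clodronate is toxic to cells that engulf its liposomes, macrophages above all. The PBS groups held 6 control and 6 wheel mice, and the clodronate groups 5 of each. Every mouse carried the cancer cells and received liposomes, so no group shows the tissue without either.

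Nearly all nucleated cells make class I molecules. Proteins are cut to peptides by the proteasome, the TAP transporter carries the peptides into the endoplasmic reticulum, tapasin holds the empty heavy chain and B2m beside the transporter, and the loaded complex travels to the surface where CD8 T cells read it. Interferon-gamma exchanges the proteasome's catalytic subunits for the immunoproteasome subunits encoded by Psmb8, Psmb9 and Psmb10, and it raises Nlrc5, the transactivator that drives class I genes. Lymphocytes and macrophages carry high levels of the pathway at rest, while fat and epithelial cells carry less.

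Libraries held 13256467 to 20484578 reads (median 16293026), totals worked out from the steps between CPM values. Of the reads of a mouse, 57.4% to 64.6% lay in genes. Values are CPM, the reads of a gene scaled to a common library total, with every value below 1 raised to 1 by the authors, a floor below which no level was known. The libraries read the 3′ end of each transcript, so a level does not grow with transcript length. In 5 mice, genes of T and B cells stood apart from those of the other 17: control PBS mouse 2, wheel PBS mouse 3 and wheel clodronate mice 3, 4 and 5. The mean log2(CPM + 1) of 18 T and B cell genes was 4.14 to 5.51 in these 5 mice and 1.00 to 1.30 in the other 17. The 10 T cell genes summed to 154 to 354 CPM in the 5 mice against 10.0 to 21.8 CPM in the others, and the 8 B cell genes to 222 to 725 CPM against 8.00 to 10.2 CPM, where 8.00 is all 8 at the floor. A list of 5 genes of lymph node stroma and vessels, 2 of them at the floor in all mice, summed to 5.00 to 8.78 CPM in the 17 mice and to as much as 1080.1 CPM in the 5. What part this tissue has in the members' levels was not tested. Comparisons of the members are given with and without these mice. Fat cell genes were abundant in every mouse, with 5 adipocyte genes summing to 4352 to 13087 CPM, but 5 muscle genes ranged from 15.9 to 19398 CPM. In control clodronate mouse 2 and wheel clodronate mouse 2 the muscle score (mean log2(CPM + 1), 11.8 and 10.6) exceeded the adipocyte score (9.05 and 9.24). In control mice all 10 macrophage genes were lower with clodronate than with PBS liposomes, by a median of 0.36 on the log2 scale, where 34.6% of all genes were higher and the median was -0.10. None was called by limma, with 2 lower at an unadjusted p below 0.05, a level that 6.08% of all genes reached as lower. In wheel-running mice 7 of the 10 were lower, with a median of -0.18 beside 0.00020 for all genes, and none was called or had an unadjusted p below 0.05. Without the 5 mice, which leaves 2 wheel clodronate mice, 0 of the 10 were higher in either comparison. The medians were then -0.35 in control and -0.63 in wheel-running mice, beside -0.11 and -0.088 for all genes.

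Of the 10 genes, 7 lie on chromosome 17, in or beside the MHC, by the GENCODE M21 annotation of GRCm38. H2-K1 spans chr17:33996017-34000347 on the minus strand and H2-D1 chr17:35262730-35267499 on the plus strand. Psmb9 (chr17:34181987-34187764, minus), Tap1 (chr17:34187553-34197225, plus), Psmb8 (chr17:34197721-34201454, plus) and Tap2 (chr17:34203527-34216321, plus) follow each other, and Tapbp lies at chr17:33915899-33929292 on the plus strand. B2m is at chr2:122147686-122153083 on the plus strand. Psmb10 (chr8:105935735-105938444, minus) and Nlrc5 (chr8:94434356-94527272, plus) share chromosome 8. All 10 are annotated as protein coding. Psmb9 and Tap1 overlap by 212 bases at their 5′ ends, far from the 3′ ends that were read. Genes on the opposite strand that reach the 3′ end of B2m, Psmb8 and Psmb10 were at the floor in every mouse. H2-K1 was the single member with a near copy of its 3′ end, 185 bases at 97.8% identity in Gm8909, a gene at the floor in every mouse, and how the authors counted reads that fit both places is not given in the sources used here.

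The promoters are shown because class I genes, Tap1 and Psmb9 are textbook cases of shared regulatory letters. RefSeq windows on GRCm38.p6 run from 250 bases before to 50 after a RefSeq start. At least 1 was at hand for 8 of the 10 members, and none for Tap2 and Nlrc5. H2-K1 has another, overlapping window (chr17:34000284-34000583) with the same matches, which is not printed. The windows of H2-D1, Psmb9, Tapbp and Psmb8 lie within the GENCODE spans given above, so the 2 annotations differ in where these genes start. The motifs reported, 4 in all, were read on both strands and are AANNGAAA (part of the site bound by interferon regulatory factors), GGGATTCCC (bound by NF-kB), TGACG (bound by CREB and ATF proteins) and CCAAT (bound by NF-Y). In the 4 windows printed below, which read 5′ to 3′ along the gene, capitals mark the matches, and no match overlaps another.
H2-K1, chr17:34000298-34000597, minus strand: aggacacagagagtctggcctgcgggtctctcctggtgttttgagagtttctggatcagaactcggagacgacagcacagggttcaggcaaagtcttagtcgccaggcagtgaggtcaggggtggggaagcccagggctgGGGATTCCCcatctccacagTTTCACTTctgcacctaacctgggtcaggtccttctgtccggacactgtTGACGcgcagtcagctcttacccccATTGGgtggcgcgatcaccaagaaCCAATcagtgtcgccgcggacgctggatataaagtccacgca
H2-D1, chr17:35262844-35263143, plus strand: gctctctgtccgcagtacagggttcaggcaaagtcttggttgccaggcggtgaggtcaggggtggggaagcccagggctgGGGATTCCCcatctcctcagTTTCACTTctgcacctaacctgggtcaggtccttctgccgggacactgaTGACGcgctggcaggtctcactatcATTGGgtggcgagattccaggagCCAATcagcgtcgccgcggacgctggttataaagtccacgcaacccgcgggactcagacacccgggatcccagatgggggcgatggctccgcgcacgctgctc
B2m, chr2:122147437-122147736, plus strand: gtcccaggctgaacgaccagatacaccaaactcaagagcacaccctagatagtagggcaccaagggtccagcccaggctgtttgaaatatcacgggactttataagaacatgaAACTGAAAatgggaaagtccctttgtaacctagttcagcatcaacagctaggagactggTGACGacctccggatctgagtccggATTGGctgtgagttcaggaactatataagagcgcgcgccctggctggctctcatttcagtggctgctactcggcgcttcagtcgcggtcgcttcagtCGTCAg
Tap1, chr17:34187306-34187605, plus strand: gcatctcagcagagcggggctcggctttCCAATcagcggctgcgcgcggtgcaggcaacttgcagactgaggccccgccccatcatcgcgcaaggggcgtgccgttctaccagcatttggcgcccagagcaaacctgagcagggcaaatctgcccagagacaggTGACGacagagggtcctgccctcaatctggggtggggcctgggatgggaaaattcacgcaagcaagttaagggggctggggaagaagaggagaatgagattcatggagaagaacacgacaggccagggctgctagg
The H2-K1 and H2-D1 windows aligned over 227 bases, of which 206 were identical. GGGATTCCC was found in these 2 windows among the members and in 0.353% of all 32851 windows. AANNGAAA was found in 3 member windows, H2-K1, H2-D1 and B2m, against 23.9% of all windows. TGACG was in 5 member windows (the same 3, Tap1 and Psmb9) against 20.8%, and CCAAT in 6 (those 5 and Tapbp) against 37.4%. The RefSeq starts of Tap1 and Psmb9 lie 226 bases apart on opposite strands, and their windows share 275 bases. Their TGACG and CCAAT matches are the same letters in these shared bases, read from either strand and counted for both genes. The near copies H2-K1 and H2-D1 are likewise counted as separate members. From these RefSeq starts the genes Tap1 and Psmb9 run apart, whereas their GENCODE spans overlap by 212 bases. A match is a run of letters and not a measured site.

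Levels differed widely between members. B2m, the light chain shared by all class I molecules, had a median of 2439 CPM over the 22 mice (1696 to 3141 CPM). The heavy chains followed, H2-D1 at a median of 783 CPM (472 to 1014 CPM) and H2-K1 at 681 CPM (497 to 1236 CPM). Tapbp, which encodes tapasin, had a median of 207 CPM (108 to 284 CPM). Psmb8 came next at 68.3 CPM, and Tap2 (42.0 CPM), Tap1 (34.2 CPM), Psmb10 (33.0 CPM) and Psmb9 (30.3 CPM) lay close together. Nlrc5 was lowest at 10.1 CPM (2.37 to 22.1 CPM), which rested on 33 to 362 reads a mouse, against 24962 to 58106 reads for B2m. The range of B2m lay above that of every other member, while the ranges of neighbours from Psmb8 down to Nlrc5 overlapped. H2-K1 and H2-D1 did not separate, the ratio of the first to the second being 0.640 to 1.30 across mice. Spread between mice was smallest for B2m (coefficient of variation 15.6%), H2-D1 (17.2%), Tapbp (21.8%) and H2-K1 (26.4%), and largest for Tap1 (54.9%), Nlrc5 (48.4%), Psmb8 (47.3%) and Psmb9 (46.0%). In bulk tissue, fewer cells of a type and less RNA per cell cannot be told apart, and RNA of the mouse and of the engrafted cells is counted together.

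**Figure D1:**
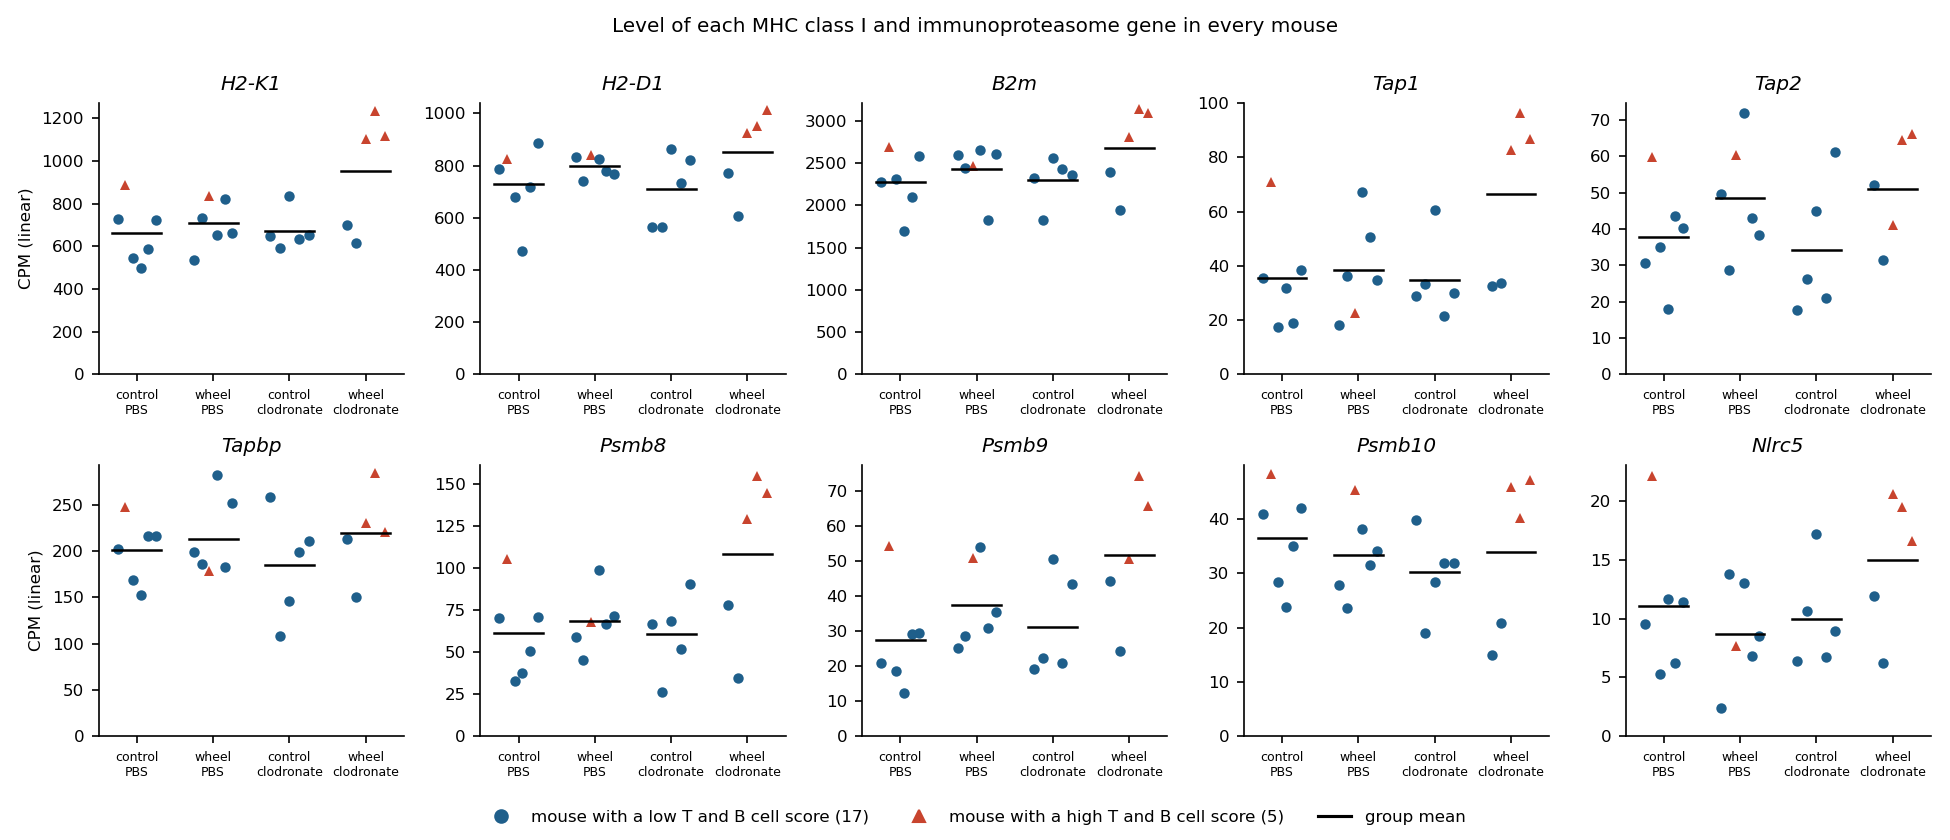
Level of the 10 members in every mouse, in CPM on linear axes that start at 0, by group. Circles are the 17 mice with a low T and B cell score, triangles the 5 with a high one, and lines the group means; the 3 wheel clodronate triangles hold the 3 highest H2-K1, H2-D1, B2m, Tap1 and Psmb8 values of all mice.

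With PBS liposomes, no difference in a member between wheel-running and control mice passed the test. Of the 10 members, 8 were higher and 2 lower in wheel-running than in control mice, and the median change was 0.12 on the log2(CPM + 1) scale, beside a median of -0.085 over all tested genes, of which 36.2% were higher. None was called by limma at an adjusted p below 0.05, the call share of all genes being 0%, and none had an unadjusted p below 0.05, a level that 0.799% of all genes reached as higher and 4.12% as lower. With each mouse scaled to the same upper quartile, 49.8% of all genes were higher, 274 rather than 121 genes had an unadjusted p below 0.05 as higher, and 8 of the 10 members were still higher.

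The immunoproteasome subunit Psmb9 differed most. Control PBS mice had 12.5 CPM at the lowest, 25.2 CPM at the median and 54.4 CPM at the highest, and wheel PBS mice 25.2, 33.2 and 54.2 CPM. The groups overlapped, but 3 of the 6 control mice lay below every wheel-running mouse. The limma change was 0.52 ± 0.32 (SE, n = 6 and 6; adjusted p = 0.987), with a 95% interval of -0.14 to 1.18. Psmb8, which encodes another of the catalytic subunits, had 33.1, 60.5 and 105 CPM in control PBS mice and 45.0, 67.5 and 98.7 CPM in wheel PBS mice at the lowest, median and highest. Its change was 0.22 ± 0.34 in limma (adjusted p = 0.991). Psmb10, the third subunit, was 38.0 CPM in the median control PBS mouse and 32.8 CPM in the median wheel PBS mouse, a difference of -0.11 ± 0.25. The 3 subunits of one particle thus had differences of both signs, none past the test.

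Tap2, which encodes 1 of the TAP chains, had 17.8, 37.6 and 59.8 CPM in control PBS mice and 28.8, 46.3 and 72.1 CPM in wheel PBS mice at the lowest, median and highest. Its change was 0.38 ± 0.30 (limma, adjusted p = 0.987), while that of its partner Tap1 was 0.13 ± 0.36. With 1 mouse left out, the Tap1 change lay between -0.052 and 0.36, negative without control PBS mouse 3 or 5 or wheel PBS mouse 4. Tap1 ran from 17.3 to 70.8 CPM in control PBS mice and from 18.2 to 67.2 CPM in wheel PBS mice, so the groups covered the same span. Intervals of the heavy chains, the light chain and tapasin were the narrowest. H2-K1 differed by 0.11 ± 0.18, H2-D1 by 0.16 ± 0.16, B2m by 0.10 ± 0.18 and Tapbp by 0.085 ± 0.19. For B2m the 95% interval of the change was -0.27 to 0.48. H2-D1 was 741 to 842 CPM in wheel PBS mice and 472 to 886 CPM in control PBS mice, so the wheel group lay within the control range. Nlrc5 was 8.09 CPM in the median wheel PBS mouse against 10.5 CPM in the median control PBS mouse, a change of -0.33 ± 0.37. Without the 5 mice with a high T and B cell score, 8 of 10 members were again higher, with a median change of 0.19, and Psmb9 differed by 0.64 ± 0.31 (limma, unadjusted p = 0.0503, adjusted p = 1). Of all genes 37.1% were then higher, with a median of -0.083.

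**Figure D2:**
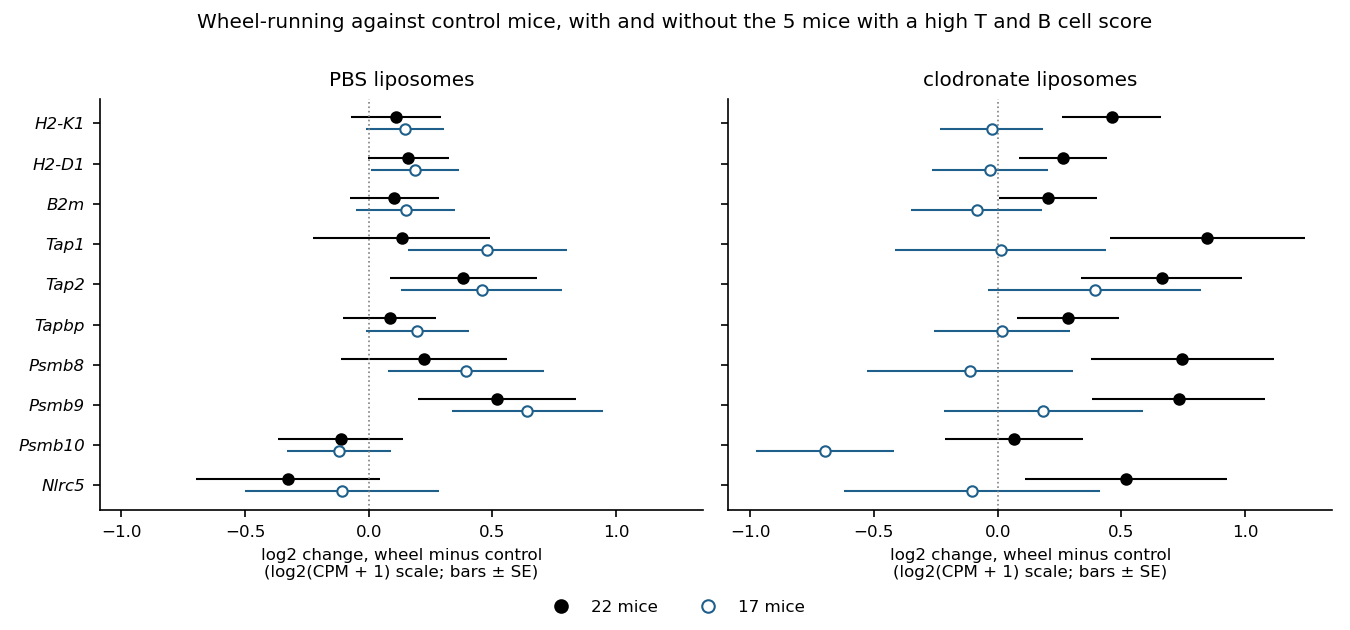
Change of each member between wheel-running and control mice on the log2(CPM + 1) scale, with bars of 1 SE, for PBS (left) and clodronate liposomes (right). Filled points use 22 mice and open points leave out the 5 with a high T and B cell score; on the right the open points of 9 members lie within 0.40 of 0, and that of Psmb10 is at -0.70.

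Other genes of the pathway gave the setting for these values, and none in any list below was called by limma in any comparison. The constitutive proteasome subunits that the immunoproteasome subunits replace were lower in wheel-running than in control mice with PBS liposomes, by more than the median of -0.085 over all genes. Psmb5 differed by -0.39 ± 0.24, Psmb7 by -0.37 ± 0.20 and Psmb6 by -0.31 ± 0.14 (limma, unadjusted p = 0.0364, adjusted p = 0.987). Pomp, the chaperone that assembles the proteasome, differed by -0.34 ± 0.14 (limma, unadjusted p = 0.0259, adjusted p = 0.987). Of these 4 genes and the activator subunits Psme1 (0.045) and Psme2 (-0.32), 1 of 6 was higher. Among 18 other class I heavy chain genes, 16 were tested and 11 of them were higher, from H2-Q10 (0.62 ± 0.55) and H2-Q7 (0.48 ± 0.44) to Mr1 (-0.36 ± 0.19) and H2-M3 (-0.51 ± 0.29). Many of these are close copies of each other, so reads may be lost or split among them. Of the peptide loading and trimming genes, 1 of 5 was higher, Pdia3 at 0.18 ± 0.17, with Tapbpl at -0.49 ± 0.30 and Canx at -0.21 ± 0.13 lowest. Of 20 tested regulators of class I genes (21 listed, Ifng itself being above the floor in too few mice), 8 were higher. Ifnar1, a chain of the type I interferon receptor (0.46 ± 0.24), and Nfya, a subunit of NF-Y (0.24 ± 0.35), were highest, and the interferon-gamma receptor chain Ifngr2 (-0.50 ± 0.38) and Rfxap, part of the RFX complex on MHC promoters (-0.45 ± 0.30), lowest. Interferon-gamma targets were split, 6 of 12 higher, between Gbp4 (0.36 ± 0.50) and Igtp (0.30 ± 0.59) at one end and Cxcl10 (-0.59 ± 0.57) and Irgm2 (-0.36 ± 0.40) at the other. Of 12 type I interferon targets 5 were higher, with Oasl2 at 0.20 ± 0.41, Oas1a at 0.12 ± 0.30, Usp18 at -0.67 ± 0.50 and Ifit2 at -0.74 ± 0.53. Of the 9 MHC class II genes 8 were higher, led by Cd74 (0.26 ± 0.45) and H2-DMb1 (0.26 ± 0.33), with H2-DMb2 (-0.31 ± 0.85) the exception. Without the 5 mice with a high T and B cell score, interferon-gamma targets were higher in 9 of 12 cases (median 0.18 rather than -0.018) and type I interferon targets in 8 of 12 (median 0.068 rather than -0.27). The other lists then had 11 of 16 class I heavy chains, 1 of 6 proteasome genes, 1 of 5 loading genes, 10 of 20 regulators and 6 of 7 class II genes higher. Beside these counts, 36.2% of all genes were higher in all mice and 37.1% without the 5.

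With clodronate liposomes, all 10 members were higher in wheel-running than in control mice, with a median change of 0.49 beside 0.0045 over all tested genes, of which 50.6% were higher. None was called by limma at an adjusted p below 0.05, where 0.00661% of all genes were. At an unadjusted p below 0.05, 3 members were higher and none lower, against 7.04% of all genes higher and 3.4% lower. With 1 mouse left out, that number of members ran from 0 (without control mouse 2 or 4 or wheel mouse 4 or 5) to 6 (without wheel mouse 2). The wheel group here holds 3 of the 5 mice with a high T and B cell score, and the control group none. All 10 T cell and all 8 B cell genes were higher in it, each at an unadjusted p below 0.05.

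The 3 members were H2-K1, Tap1 and Psmb9. H2-K1 had 649, 593, 838, 633 and 651 CPM in control clodronate mice 1 to 5, and 700.0, 616, 1105, 1236 and 1116 CPM in wheel clodronate mice 1 to 5. Wheel mice 3, 4 and 5 were above every control mouse, and wheel mice 1 and 2 lay within the control range. The change was 0.46 ± 0.20 (SE, n = 5 and 5; limma, unadjusted p = 0.0301, adjusted p = 0.398). Tap1 showed the same division, with 29.0, 33.2, 60.6, 21.4 and 30.0 CPM in control mice and 32.4, 33.7, 82.6, 96.2 and 86.8 CPM in wheel mice, a change of 0.85 ± 0.39 (limma, unadjusted p = 0.0420, adjusted p = 0.446). Psmb9 had 19.2, 22.2, 50.6, 21.01 and 43.5 CPM in control mice and 44.3, 24.4, 50.7, 74.5 and 65.7 CPM in wheel mice. Its change was 0.73 ± 0.35 (limma, unadjusted p = 0.0473, adjusted p = 0.470).

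Psmb8 was close behind at 0.75 ± 0.37 (limma, adjusted p = 0.493). It had 67.0, 26.3, 68.6, 52.2 and 90.5 CPM in control clodronate mice and 78.0, 34.9, 129, 155 and 145 CPM in wheel clodronate mice, where again mice 3, 4 and 5 were highest. Tap2 differed by 0.66 ± 0.33 (limma, adjusted p = 0.484), with 17.8, 26.2, 44.9, 21.01 and 61.3 CPM in control mice and 52.2, 31.5, 41.1, 64.4 and 66.2 CPM in wheel mice. Wheel mouse 3 was not set apart for Tap2, lying below wheel mouse 1. Nlrc5 differed by 0.52 ± 0.41, Tapbp by 0.29 ± 0.21, H2-D1 by 0.27 ± 0.18, B2m by 0.20 ± 0.20 and Psmb10 by 0.066 ± 0.28. B2m had 2325, 1830.3, 2565, 2431 and 2354 CPM in control mice and 2393, 1942, 2810.3, 3141 and 3095 CPM in wheel mice, and wheel mice 3, 4 and 5 were above all controls although the fold was small. H2-D1 had 565, 565, 864, 732 and 822 CPM in control mice and 771, 606, 926, 952 and 1014 CPM in wheel mice, with the same 3 mice highest. Nlrc5 had 6.40, 10.6, 17.2, 6.74 and 8.98 CPM in control mice and 11.9, 6.21, 20.5, 19.5 and 16.6 CPM in wheel mice, where control mouse 3 lay above wheel mouse 5. Tapbp overlapped throughout, at 108 to 259 CPM in control mice and 151 to 284 CPM in wheel mice.

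Without the 5 mice, 2 wheel clodronate mice remained against 5 control clodronate mice. Then 4 of the 10 members were higher and 6 lower, with a median of -0.028, close to the 44.7% of all genes that were higher and their median of -0.046. H2-K1 differed by -0.024 ± 0.21, Tap1 by 0.012 ± 0.42, Psmb8 by -0.11 ± 0.42 and Psmb9 by 0.19 ± 0.40. Psmb10, which had been nearly level, was then -0.70 ± 0.28 (limma, unadjusted p = 0.0219, adjusted p = 0.764), as its 2 remaining wheel mice had 15.01 and 20.9 CPM against 19.1 to 39.8 CPM in controls. Again none was called. Wheel mouse 2, which is 1 of these 2, is rich in muscle genes, and the 5 muscle genes were lower in wheel mice by a median of 1.24 on the log2 scale in all mice but higher by 1.42 without the 5. Without the 2 muscle-rich mice alone, all 10 members were higher, with a median of 0.66 beside 0.012 for all genes, of which 51.3% were higher. Of the members 5 had an unadjusted p below 0.05 (lowest limma adjusted p = 0.205), a level that 8.76% of all genes reached as higher. What part muscle content has in these values was not tested further. With the T and B cell score as a covariate and all mice kept, 7 members were higher, with a median of 0.063. Of all genes 49.0% were then higher, with a median of -0.0077. For the lists that follow, 50.6% of all genes were higher in all mice and 44.7% without the 5. An unadjusted limma p below 0.05 was reached by 7.04% of all genes as higher in all mice. Of the other class I heavy chain genes, 13 of 16 were higher with a median of 0.42, 5 of them at an unadjusted p below 0.05. Without the 5 mice 10 of 16 were higher, with a median of 0.060. Of the regulators 18 of 20 were higher, 6 at an unadjusted p below 0.05, and without the 5 mice 7 of 20 were. The constitutive proteasome subunits had differences near 0 over all mice, with Psmb5 at 0.0045 ± 0.27, Psmb6 at 0.0074 ± 0.15 and Psmb7 at -0.11 ± 0.21, while the activator subunit Psme2 differed by 0.70 ± 0.26 (limma, unadjusted p = 0.0140, adjusted p = 0.314). Interferon-gamma targets were higher in 11 of 12 cases (median 0.40) and type I interferon targets in 12 of 12 (median 0.61), and without the 5 mice in 4 and 8 of 12. Of the peptide loading and trimming genes 3 of 5 were higher, and 1 of 5 without the 5 mice. Of the 6 proteasome counterpart and activator genes 5 were higher, and 1 without them. The MHC class II genes followed the same division. In all mice 9 of 9 were higher, with a median of 1.33. Without the 5 mice 1 of 7 still tested was higher, with a median of -0.39.

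The comparison of clodronate with PBS liposomes shares its groups with those above. In control mice, 4 of 10 members were higher with clodronate, the median was -0.018 beside -0.10 for all genes, and 34.6% of all genes were higher. None was called by limma (0% of all genes) or had an unadjusted p below 0.05 (0.905% of all genes higher, 6.08% lower). The largest differences were Psmb10 at -0.26 ± 0.27 and Psmb9 at 0.21 ± 0.33, and B2m stood at 0.024 ± 0.19 with a 95% interval of -0.37 to 0.42. With upper-quartile scaling, without the 5 mice, or without the 2 muscle-rich mice, 7 of 10 were higher, so the balance of directions in control mice differed between settings. Of all genes 48.9%, 34.4% and 35.1% were higher in these settings. In wheel-running mice, 9 of 10 were higher with clodronate, with a median of 0.26 beside 0.00020 for all genes, of which 50.1% were higher. None was called by limma (0.00661% of all genes), and none had an unadjusted p below 0.05 (6.08% of all genes higher, 5.54% lower). With scaling to reads in genes 3 members had such a p, beside 7.73% of all genes as higher. With upper-quartile scaling 1 member had (6.18% of all genes), and without the 2 muscle-rich mice 4 had (8.54%). No member was called in these settings, where 2, 3 and 40 of all genes were. Nlrc5 (0.76 ± 0.39) and Tap1 (0.76 ± 0.38) differed most, followed by Psmb8 (0.52 ± 0.35), Psmb9 (0.42 ± 0.33) and H2-K1 (0.39 ± 0.19; limma, adjusted p = 0.431). Without the 5 mice 1 of 10 was higher, with a median of -0.18, where 41.4% of all genes were higher with a median of -0.088, and Psmb10 differed by -0.76 ± 0.28 (limma, unadjusted p = 0.0143, adjusted p = 0.462).

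The difference between the wheel changes under clodronate and PBS liposomes was positive for all 10 members, with a median of 0.25 beside 0.091 for all genes, of which 59.2% were positive. Upper-quartile scaling brought the median of all genes to -0.0093 and left 8 of 10 members positive. It was largest for Nlrc5 (0.84 ± 0.55), Tap1 (0.71 ± 0.53) and Psmb8 (0.52 ± 0.50). No member was called by limma (0% of all genes) or reached an unadjusted p below 0.05, which 6.35% of all genes reached as positive and 1.23% as negative. Without the 5 mice, 1 of 10 was positive and the median was -0.23, where 53.4% of all genes were positive with a median of 0.039.

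Across single mice, the 5 with a high T and B cell score ranked high for most members. H2-K1 was the single member for which they held ranks 1 to 5, although the lowest of them (838.3 CPM) was level with the highest of the other 17 (837.9 CPM). For B2m, Tap1, Psmb8 and Psmb10, 4 of the 5 were above all 17 others, and for H2-D1, Psmb9 and Nlrc5, 3 were. For Tapbp 1 of the 5 was, and for Tap2 none. Wheel PBS mouse 3 departed from the other 4, with 22.8 CPM of Tap1, 179 CPM of Tapbp and 7.66 CPM of Nlrc5, each below the median of the 17 mice (33.2, 199 and 8.98 CPM), beside 51.0 CPM of Psmb9, above their median of 28.6 CPM. Its T and B cell score of 4.21 was close to the 4.14 of control PBS mouse 2, which had 70.8 CPM of Tap1 and 22.1 CPM of Nlrc5. The type I interferon target score, the mean log2(CPM + 1) of 12 genes, was 2.87 in the former and 4.78 in the latter.

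Among the 17 other mice, wheel PBS mouse 4 stood out. It had 72.1 CPM of Tap2, the highest of all 22 mice, 282 CPM of Tapbp, 67.2 CPM of Tap1, 98.7 CPM of Psmb8 and 54.2 CPM of Psmb9, each the highest of the 17. Its interferon-gamma target score (5.00) and type I interferon target score (5.11) were the highest of all 22 mice, and its T and B cell score, 1.101, lay among the low ones. Control PBS mouse 4 was at the other end, with the lowest H2-K1 (497 CPM), H2-D1 (472 CPM), B2m (1696 CPM) and Psmb9 (12.5 CPM) of all mice, and a type I interferon target score of 2.92. Both mice are in the comparison with PBS liposomes, one in each group.

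Each immunoproteasome subunit was then set against the constitutive subunit it replaces, a ratio formed after the values of both had been seen. Because each transcript gives 1 kind of 3′ read, the ratios do not depend on length, and library scaling cancels in them. How well the 3′ end of each gene was captured and counted was not measured. A ratio above or below 1 therefore does not show which subunit was more abundant, and the ratios serve to compare mice. Psmb8 exceeded Psmb5 in all 22 mice, with a ratio of 1.71 to 15.2 and a median of 6.20. Psmb9 was below Psmb6 in all but 1 mouse (0.118 to 1.07, median 0.424), and Psmb10 was mostly below Psmb7 (0.309 to 1.42, median 0.671). With PBS liposomes, Psmb9/Psmb6 was 0.118 to 0.736 (median 0.278) in control mice and 0.374 to 0.891 (median 0.442) in wheel-running mice, a mean log2 difference of 0.85 (exact two-sided permutation p = 0.0628, adjusted p = 0.330 over 8 tests). Psmb8/Psmb5 had a median of 3.73 in control PBS mice and 6.04 in wheel PBS mice, a log2 difference of 0.66 (exact permutation p = 0.162, adjusted p = 0.330). The highest ratio of these groups, 14.5, was that of wheel PBS mouse 5. Its Psmb8 was 66.9 CPM, beside a median of 68.3 CPM over all 22 mice, so the Psmb5 value in this ratio was low. With 1 mouse left out, the log2 difference lay between 0.40 and 0.85. For Psmb10/Psmb7 the log2 difference was 0.26 (exact permutation p = 0.392, adjusted p = 0.522).

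All 3 ratios were thus higher on average in wheel PBS mice, and none passed the test. The counterparts Psmb5, Psmb6 and Psmb7 were each lower in these mice, so the denominators enter the differences. The members alone differed by 0.22 (Psmb8), 0.52 (Psmb9) and -0.11 (Psmb10), so Psmb10 was lower although its ratio was higher. Without control mouse 2 and wheel mouse 3, the Psmb9/Psmb6 difference was 0.97 and the Psmb8/Psmb5 difference 1.01, with exact permutation p = 0.0238 and p = 0.0556 (adjusted p = 0.190 and 0.222). Wheel PBS mouse 5, with its low Psmb5 value, was kept in both. With clodronate liposomes, the log2 differences were 0.75 for Psmb8/Psmb5, 0.75 for Psmb9/Psmb6 and 0.17 for Psmb10/Psmb7, with adjusted exact permutation p from 0.330 to 0.680. Without the mice with a high T and B cell score these became -0.0049, 0.26 and -0.27, with 2 wheel mice left. H2-K1/H2-D1 had a log2 difference of -0.052 with PBS and 0.20 with clodronate liposomes (exact permutation, adjusted p = 0.712 and 0.330). It was 0.996 to 1.30 in the 5 mice with a high T and B cell score and 0.640 to 1.15 in the other 17.

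**Figure D3:**
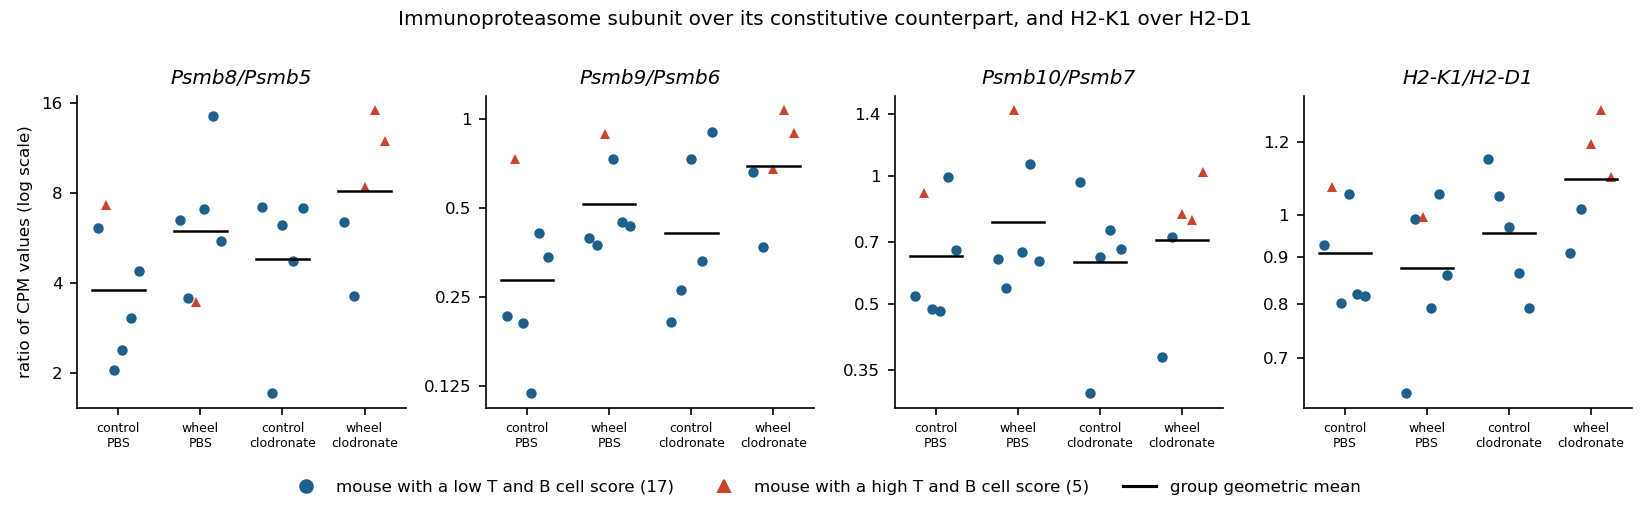
Ratio of CPM values in every mouse by group, on log axes, for 3 immunoproteasome subunits over their constitutive counterparts and for H2-K1 over H2-D1. Circles and triangles are mice with a low and a high T and B cell score, lines the group geometric means; 4 control PBS mice lie below all wheel PBS mice for Psmb9/Psmb6.

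The members varied together across mice. Over the 22 mice all 45 pairs of members had a positive Pearson correlation of log2(CPM + 1), with a median of 0.59, from 0.21 for Tapbp with Nlrc5 to 0.87 for Tap2 with Psmb9. Over the 17 mice with a low T and B cell score, 43 of 45 were positive, with a median of 0.42. Tap2 with Psmb9 stayed the closest pair at 0.84, and Psmb10 with Nlrc5 was lowest at -0.12. Mice of all 4 groups enter these values, which describe these libraries and share their depth. Correlations between other pairs of genes were not computed. Whether the members vary together more than other genes of this mixed tissue was therefore not tested. Among the 5 genes most like the mean of the 10 members over the 22 mice, out of all tested genes, were Ifi47 (r = 0.93), Ifi209 (0.90), Psme1 (0.88) and Sp110 (0.88). Psme1 encodes a subunit of the proteasome activator. Over the 17 mice they were Ifi47 (0.85), Pvt1 (0.82), Cd300a (0.81), Coro1a (0.80) and Ifih1 (0.80).

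Members were set against the mean of 12 interferon-gamma targets in the 17 mice with a low T and B cell score, since the other 5 form a cluster of their own. The 17 mice come from all 4 groups and were permuted without regard to group, so differences between groups enter these relations. Of 20 relations, with 10 members and 2 scores, that of B2m to the interferon-gamma targets passed for Pearson's r (0.71, permutation p = 0.00187, adjusted p = 0.0374) and missed for Spearman's rho (0.70, permutation p = 0.00254, adjusted p = 0.0508). Leaving out the 2 mice farthest from the median score, r was 0.67. The 17 mice themselves parted at a score of 3.82 to 4.52, however, with 4 mice above the gap. In the 13 below it, r for B2m was 0.62 and rho 0.46 (permutation, adjusted p = 0.103 and 0.540 over 10 relations), so the relation did not pass there, and the 4 above are too few for a value of their own. Psmb8 (r = 0.59, rho = 0.55) and Psmb9 (r = 0.58, rho = 0.35) came next in the 17 mice, each with an adjusted permutation p of 0.0943 for r. Tap1 had r = 0.51 in the 17 mice but 0.073 without the 2 farthest mice and -0.30 in the 13 (permutation, adjusted p = 0.114 in the 17 and 0.567 in the 13). H2-K1 had r = 0.37 and rho = 0.33 (permutation, adjusted p = 0.246 and 0.408). Against the mean of 10 macrophage genes, B2m had r = 0.56 and rho = 0.59 (permutation, adjusted p = 0.0943 and 0.143), Psmb10 r = 0.48 and rho = 0.40 (adjusted permutation p = 0.120 and 0.315), and H2-K1 r = -0.072 and rho = -0.042 (adjusted permutation p = 0.896 and 0.931). No relation to the macrophage genes passed. These genes were lower with clodronate in the 17 mice, so macrophage score and liposome type cannot be told apart in these values.

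**Figure D4:**
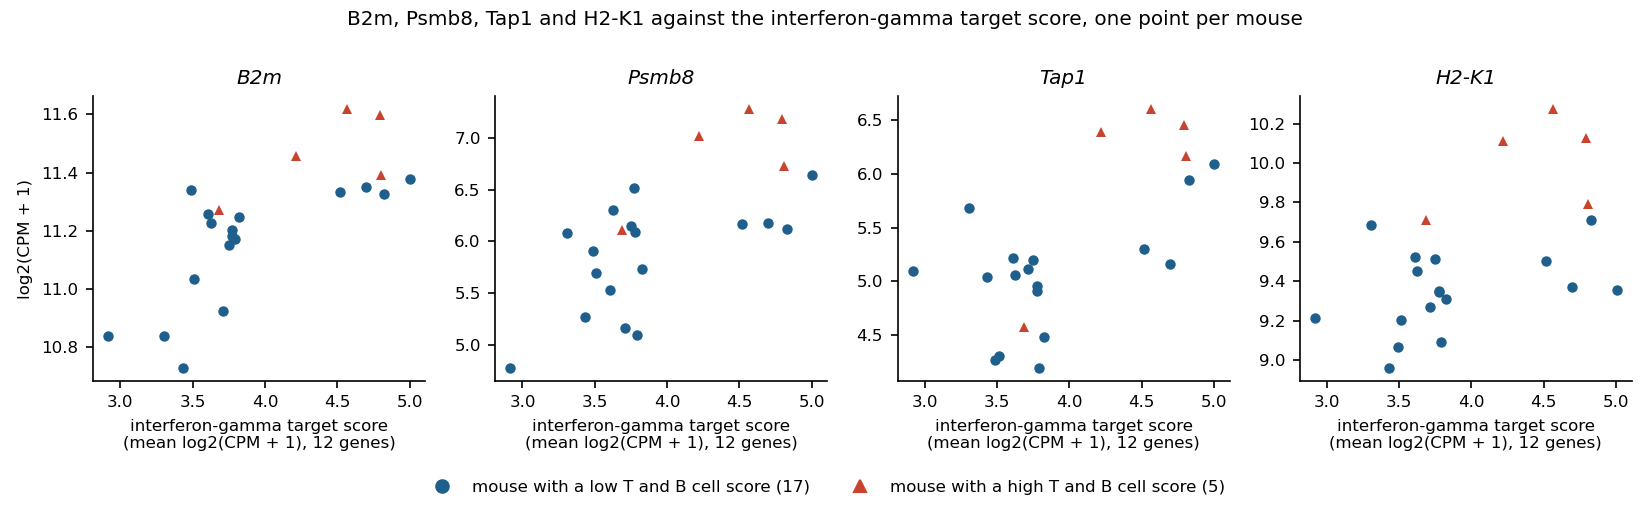
Level of B2m, Psmb8, Tap1 and H2-K1 as log2(CPM + 1) against the interferon-gamma target score (mean log2(CPM + 1) of 12 genes), 1 point per mouse. Circles are the 17 mice with a low and triangles the 5 with a high T and B cell score; 4 circles stand apart above a score of 4.5, and r over the circles is 0.71 for B2m and 0.37 for H2-K1.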

How the data were processed

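RNA from 22 fat pads was read with QuantSeq 3′ FWD libraries on an Illumina sequencer. Per the labels and the study's methods, the authors aligned reads to GRCm38 with STAR (2.5.3a in the submitters' processing notes) and counted them per gene, with a counting tool not given in the sources used here. The signal deposited by the authors for each gene is a CPM value, scaled to all reads of the library, with values below 1 set to 1. Above the floor and up to 1000 CPM, 100% of values were a whole multiple of 1 read to within 0.1 read. The read totals were fitted to these same values, and higher values were not checked. Reads under the floor are lost, for a floor of at most 13 to 20 reads a mouse, so no count test was run. Summary rows such as unmapped reads were left out, which leaves 52636 gene rows.

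Here 15138 genes exceeded the floor in 5 or more mice, and their log2(CPM + 1) values were fitted with limma 3.58.1 in R 4.3.3 (4 group means, empirical Bayes with trend), with Benjamini-Hochberg adjustment over all of them and calls at an adjusted p below 0.05. Fold changes on this scale understate changes of low genes. Ratios were compared by exact permutation and relations by 100000 permutations (scipy 1.17.1). The fit was tested on simulated data. The rule for named genes was all 10 members, the genes with the largest changes each way in each pathway list with PBS liposomes, and the 5 genes most like the members. Of the last, 1 gene is not reported here, nor is 1 promoter motif. Pomp and Psme2, named beyond it, were chosen after their values were seen. The members and lists were chosen with earlier results of these data known. Replicate numbers name different mice, and same-numbered mice were not treated as pairs. Their correlations ran from -0.39 to 0.52, with means of -0.075 to 0.18 per comparison. Differently numbered mice were not compared in this way, so a pairing was not tested.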

Additional observations from a re-analysis of the deposited data

Results flagged for a closer look

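Within a group of mice, 2 of 40 sets of values had 1 mouse far from the rest, and chance alone gives about 2. H2-K1 was highest in control clodronate mouse 3 at 838 CPM (9.71 on the log2(CPM + 1) scale, against 9.35 in the nearest mouse of its group). That mouse had one of the 4 interferon-gamma target scores above the gap, 4.83, and a T and B cell score among the low ones. B2m was lowest in wheel PBS mouse 5 at 1829 CPM (10.84 on the log2 scale, against 11.26 in the nearest mouse), a mouse whose H2-K1, at 822 CPM, was second only to wheel PBS mouse 3 in its group. The source of either value was not tested.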

How the results depend on the processing

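No member was called by limma in any of the 5 comparisons under any setting run: upper-quartile scaling, scaling to reads in genes, pseudocounts of 0.1 and 5, a mean of at least 5 CPM, genes above the floor in any mouse, no variance trend, the compared groups alone, the replicate block, the T and B cell score as a covariate, leaving out the 5 mice with a high score, leaving out the 2 with more muscle than fat cell signal, or leaving out 1 mouse. Scaling to reads in genes, leaving out the muscle-rich mice, the ratios and the relations below the gap were chosen after seeing the data. With the replicate block (the numbers are not known to pair the mice) 0 members were called in each comparison, and Psmb8 changed sign to 0.037 for clodronate against PBS in control mice. In the wheel comparison with clodronate liposomes, 1 rather than 3 members then had an unadjusted p below 0.05. Scaling to reads in genes gave 5 members with an unadjusted p below 0.05 in that wheel comparison, in place of 3. The share of all genes with such a p as higher was 9.01%, against 7.04% in the main fit and 7.02% with the block. Of 598 single values under the settings that leave out no single mouse, 58 changed sign; the causes were not tested. In the wheel comparison with clodronate liposomes these were, with the covariate, B2m -0.012, Psmb10 -0.53 and Nlrc5 -0.068, and without the 5 mice H2-K1 -0.024, H2-D1 -0.031, B2m -0.085, Psmb8 -0.11, Psmb10 -0.70 and Nlrc5 -0.11. For clodronate against PBS in control mice they were H2-D1 0.086, Psmb8 0.11 and Nlrc5 0.025 with upper-quartile scaling, H2-D1 0.0077, Psmb8 0.11 and Nlrc5 0.022 with the covariate, H2-D1 0.010, Psmb8 0.17 and Nlrc5 0.13 without the 5 mice, Psmb8 0.020 with reads in genes, and H2-D1 0.045, Tapbp 0.011 and Psmb8 0.26 without the 2 muscle-rich mice. In wheel-running mice they were H2-D1 -0.11, B2m -0.049, Tap2 -0.24, Tapbp -0.094, Psmb8 -0.016 and Psmb9 -0.10 with the covariate, and H2-K1 -0.039, H2-D1 -0.21, B2m -0.16, Tap1 -0.20, Tap2 -0.12, Tapbp -0.28, Psmb8 -0.33 and Psmb9 -0.029 without the 5 mice, and Psmb10 0.053 without the 2 muscle-rich mice. For the difference between wheel changes they were H2-D1 -0.016 and B2m -0.020 with upper-quartile scaling. With the covariate they were H2-K1 -0.062, H2-D1 -0.11, B2m -0.11, Tap2 -0.098, Psmb8 -0.13, Psmb9 -0.42 and Psmb10 -0.41. Without the 5 mice they were H2-K1 -0.17, H2-D1 -0.22, B2m -0.23, Tap1 -0.47, Tap2 -0.064, Tapbp -0.18, Psmb8 -0.50, Psmb9 -0.45 and Psmb10 -0.58. The clodronate ratios Psmb8/Psmb5 (-0.0049) and Psmb10/Psmb7 (-0.27) turned likewise.

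With 1 mouse left out at a time, signs changed within these ranges. In control mice with clodronate against PBS they were B2m -0.057 to 0.10, H2-D1 -0.15 to 0.045, H2-K1 -0.040 to 0.13, Nlrc5 -0.28 to 0.13, Psmb8 -0.17 to 0.26, Tap1 -0.17 to 0.27 and Tapbp -0.30 to 0.011. In wheel-running mice they were Psmb10 -0.23 to 0.17, Tap2 -0.058 to 0.23 and Tapbp -0.063 to 0.16. With wheel against control they were Psmb10 -0.084 to 0.31 (clodronate) and Tap1 -0.052 to 0.36 (PBS), and for the difference of wheel changes Psmb9 -0.0055 to 0.45. H2-K1/H2-D1 with PBS ran from -0.11 to 0.039 and Psmb10/Psmb7 with clodronate from -0.081 to 0.40. Nlrc5, at 33 to 362 reads a mouse, is the least precise member.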
